A study of Mus musculus with 12 samples.

Results

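Immediate early genes are transcribed within minutes of a growth signal or a stress, from factors already present in the cell. The 10 genes described here are Fos, Fosb, Fosl1, Fosl2, Jun, Junb, Egr1, Atf3, Ier2 and Ier3, chosen by name. Each had a row in all 12 count files, among 24015 gene rows, and all 10 passed the filter on low counts that left 14356 genes for testing. The cells were mouse embryoid bodies, the aggregates that embryonic stem cells form in suspension when they differentiate. The 4 groups of 3 libraries were control and Trim33-deficient bodies on day 2 and on day 2.5. Per the labels, every line, derived from outbred mouse embryos, had Trim33-flox on both alleles and the transgene UbcCreERT2, a Cre recombinase that tamoxifen activates, driven by the broadly active ubiquitin C promoter. The labels nevertheless give the controls the genotype wildtype, and whether controls also received tamoxifen is not given in the sources used here. Cells had been kept without feeders in LIF and 2i, and deficiency was started with 4OH-Tamoxifen on day 1. The series compared the 2 genotypes to find genes that differ when Trim33 is lost, a nuclear protein that reads histone marks and works with Smad proteins.

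Fos and Jun proteins pair through leucine zippers into AP-1, a transcription factor that binds the heptamer TGANTCA. Jun proteins can also pair with each other and with ATF proteins such as Atf3, and such pairs bind the related octamer TGACNTCA. Transcription of Fos and Egr1 is known to be switched on by ERK signalling through serum response factor and its partners, and Jun and Atf3 by stress kinases and by ATF proteins. In embryonic stem cells ERK activity is known to push cells out of the naive state, and the inhibitor mix 2i holds it down.

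Promoters of 4 members that were higher in Trim33-deficient bodies are shown, because all 4 passed for genotype on day 2.5. The sequences run from 250 bases before to 50 bases after the gene start and come from RefSeq on build GRCm38.p6. They were matched by symbol, which found 7 of the 10 members. Fosl1, Egr1 and Ier2 had no entry, so their promoters were not searched, although Fosl1 and Ier2 also passed on day 2.5. The counts themselves were made on build mm9. Capitals mark every match, on both strands, to TGACG (the core of the ATF and cyclic AMP site), TGANTCA, TGACNTCA, the CArG box that binds serum response factor, and TATAAA.
Jun, chr4:95052173-95052472, minus strand: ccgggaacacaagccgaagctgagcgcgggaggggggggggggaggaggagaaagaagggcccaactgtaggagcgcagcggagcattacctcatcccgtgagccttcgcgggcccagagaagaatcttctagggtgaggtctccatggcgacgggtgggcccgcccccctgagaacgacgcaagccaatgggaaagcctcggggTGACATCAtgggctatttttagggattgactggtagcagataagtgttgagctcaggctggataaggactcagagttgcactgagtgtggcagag
Junb, chr8:84978699-84978998, minus strand: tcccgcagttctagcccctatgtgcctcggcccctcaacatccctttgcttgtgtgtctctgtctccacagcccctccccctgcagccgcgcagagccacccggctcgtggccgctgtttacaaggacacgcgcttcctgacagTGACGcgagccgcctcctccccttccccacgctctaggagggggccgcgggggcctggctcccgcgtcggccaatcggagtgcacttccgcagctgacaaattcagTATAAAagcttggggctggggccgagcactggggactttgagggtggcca
Fos, chr12:85473640-85473939, plus strand: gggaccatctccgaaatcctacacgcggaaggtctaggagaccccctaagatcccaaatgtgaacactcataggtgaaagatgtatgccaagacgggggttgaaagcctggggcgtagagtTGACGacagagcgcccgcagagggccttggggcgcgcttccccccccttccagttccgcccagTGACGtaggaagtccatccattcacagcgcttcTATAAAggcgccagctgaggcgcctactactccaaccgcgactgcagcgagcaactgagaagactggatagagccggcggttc
Atf3, chr1:191183284-191183583, minus strand: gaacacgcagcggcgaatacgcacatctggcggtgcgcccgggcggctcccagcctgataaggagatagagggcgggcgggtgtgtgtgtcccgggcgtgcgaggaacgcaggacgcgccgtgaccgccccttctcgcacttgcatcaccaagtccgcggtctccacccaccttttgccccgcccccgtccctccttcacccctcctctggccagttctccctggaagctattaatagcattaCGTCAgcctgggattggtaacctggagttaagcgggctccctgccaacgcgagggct
The Jun window held TGACATCA, a form of TGACNTCA that lies 45 bases before the start, and 8.83% of 32851 promoters of this length held that octamer. TGACG was found in Fos, Fosb, Junb and Atf3, against 20.8% of all promoters. It lay at 129 and 66 bases before the start in Fos and, as CGTCA, 7 bases before it in Atf3. Neither TGANTCA (7.81% of all promoters) nor a CArG box (1.63%) was found in any of the 7 windows, which says only that these letters are not in these windows. TATAAA, present in 13.6% of all promoters, was found in Fos and Junb. It began 33 bases before the start in Fos and at the annotated start itself in Junb.

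The libraries held 10066338 to 16529627 counts assigned to genes, so that 3 counts, the limit set by a count of 0, equal 0.179 to 0.318 CPM (counts scaled to library size). Trim33 was 271 ± 8.55 CPM in control and 66.0 ± 4.88 CPM in Trim33-deficient bodies on day 2, and 250 ± 12.8 against 58.3 ± 4.23 CPM on day 2.5 (SD, n = 3 each). Pluripotent and epiblast markers were abundant in every library, with Pou5f1 at 766 to 976 CPM. Of 7 fibroblast markers, Col1a1, Col1a2, Col3a1, Thy1 and Dcn had counts in every library, Postn was at 0 in 11 and Lum in 7. Of 3 libraries that stood apart, 2 were rich in the ribosomal RNA precursor Rn45s, at 7.87% (day 2 Trim33-deficient replicate 1) and 11.9% (day 2.5 control replicate 2) of all gene counts where the other libraries had 0.609 to 1.67%. Hypoxia and glycolysis genes were high in day 2 control replicate 2 and in day 2.5 control replicate 2, by 0.71 and 0.46 on the log2 scale over the mean of all libraries, where the other 10 lay between -0.42 and 0.07. On day 2 Trim33-deficient replicate 1 was the highest library of its group for 8 of the 10 members.

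Levels of the 10 members differed widely. Scaled by exon length (GENCODE M21, CPM per kilobase), Ier2 was the highest in every group, at 54.8 ± 2.56 in day 2 control bodies (SD, n = 3). Ier3 came next in those bodies, with a mean of 10.6 and an SD of 7.38, because 1 of its 3 libraries was far above the others. Jun followed at 4.70 ± 0.16, Junb at 2.97 ± 0.47, Egr1 at 2.52 ± 0.48, Fos at 1.49 ± 0.36 and Fosl1 at 1.20 ± 0.31, on the same per-kilobase scale. Junb and Egr1 did not differ beyond their spread, nor did Fos and Fosl1. Fosl2 at 0.62 ± 0.33 and Atf3 at 0.46 ± 0.04 were lower still, and Fosb was the lowest at 0.08 ± 0.02. In day 2.5 Trim33-deficient bodies the order was Ier2 at 60.9 ± 2.95, Jun at 15.4 ± 2.31, Junb at 8.33 ± 1.46 and Ier3 at 4.55 ± 0.57. Fos (2.77 ± 0.67), Fosl1 (2.58 ± 0.30), Atf3 (2.39 ± 0.11) and Egr1 (2.36 ± 0.38) then lay within each other's spread.

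Jun and Junb on both days, and Fos, Fosl1 and Atf3 on day 2.5, were higher after loss of Trim33, while Egr1 and Ier3 did not pass on either day. On day 2, 3 of the 10 members rose (Jun, Junb and Ier2), 0 fell and 7 did not pass, where 9.84% of all tested genes passed, 5.94% higher and 3.90% lower. Both counts moved when 1 library was left out: 1 member passed without day 2 control replicate 3 or without day 2 Trim33-deficient replicate 1, and 564 and 514 of all tested genes in place of 1413. On day 2.5, 6 rose (Jun, Junb, Fos, Fosl1, Atf3 and Ier2), 0 fell and 4 did not pass, where 42.8% of all tested genes passed, 22.0% higher and 20.7% lower. The median log2 fold change of the 10 was 0.35 on day 2 and 0.99 on day 2.5, beside medians of 0.00 and -0.01 over all tested genes. Without Fosb, which is set apart below, the medians were 0.31 on day 2 (the value of Fos) and 0.95 on day 2.5 (that of Junb). Control and Trim33-deficient libraries did not overlap for 4 members on day 2 and, beside Fosb, for 6 on day 2.5, all higher in the Trim33-deficient bodies, where 14.9% and 26.7% of all tested genes were higher without overlap (29.4% and 53.0% in either direction, 14.5% and 26.2% lower). Fosb also did not overlap on day 2.5, but it entered the test only through its Trim33-deficient libraries, so its direction there is no result. Embryoid bodies are mixtures, so more cells with a transcript and more of it per cell cannot be told apart. On day 2.5 the summed level of 7 trophoblast markers was 28.8 to 39.1 CPM in control libraries and 53.3 to 60.4 CPM in Trim33-deficient ones, and that of 8 pluripotent and epiblast markers was 5580 to 6227 against 3934 to 4673 CPM. By summed level the other 4 cell type lists were lower in Trim33-deficient libraries on day 2.5 without overlap. Fibroblast markers were at 35.0 to 43.9 against 22.5 to 25.5 CPM and endoderm markers at 32.9 to 43.9 against 28.7 to 31.8 CPM. Mesoderm markers were at 6.55 to 8.47 against 3.73 to 5.77 CPM and neuroectoderm markers at 131 to 147 against 113 to 129 CPM. The summed level follows the most abundant genes of a list. By mean log2 deviation from the mean of all libraries, over the tested genes, endoderm and neuroectoderm markers were instead higher without overlap. Endoderm markers were at 0.32, 0.28 and 0.36 in Trim33-deficient and -0.10, 0.08 and -0.02 in control libraries. Neuroectoderm markers were at 0.32, 0.51 and 0.32 against -0.02, 0.04 and 0.12. Fibroblast and mesoderm markers were lower by this measure too. On day 2 the summed pluripotent and epiblast markers were already apart, at 6074 to 6606 against 4998 to 5362 CPM. So were the summed fibroblast markers, at 30.2 to 37.4 against 25.0 to 29.3 CPM, and the sums of the other 4 cell type lists overlapped. By mean log2 deviation trophoblast markers were already higher without overlap on day 2, and fibroblast markers overlapped. Trophoblast markers were at 0.35, 0.08 and -0.14 in Trim33-deficient and -0.22, -0.45 and -0.58 in control libraries. The part of cell makeup in the changes of the members was not tested.

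**Figure D1:**
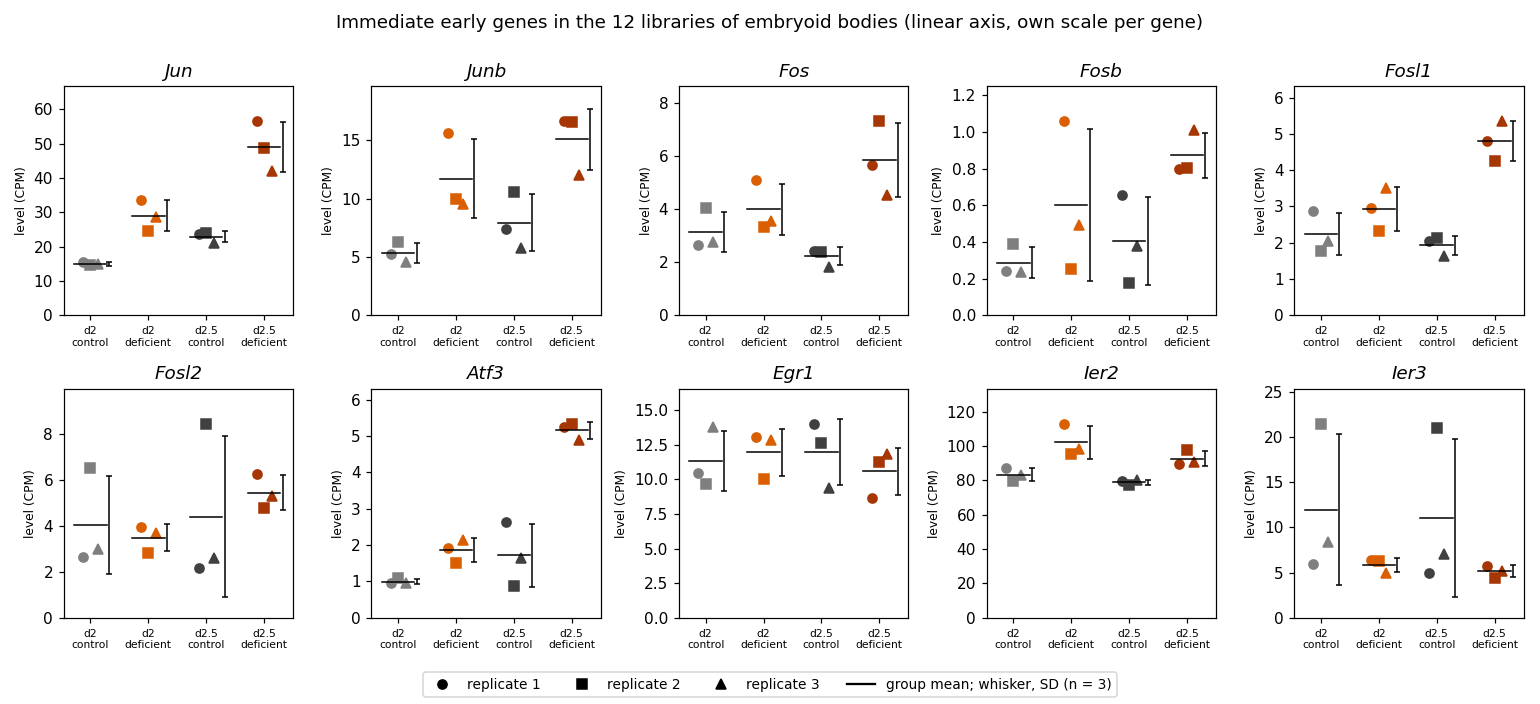
Level of each of the 10 genes in CPM (linear axis from 0, own scale per gene) in the 12 libraries, by day (d2, d2.5) and genotype; symbols are replicates, the line is the group mean and the whisker its SD (n = 3). Jun rises from 14.5 to 15.5 CPM in day 2 controls to 42.0 to 56.7 CPM in day 2.5 Trim33-deficient libraries, and Ier3 stands near 21 CPM in replicate 2 of both control groups.

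Jun, the partner that AP-1 needs to bind DNA well, rose on both days. On day 2 it was at 15.5, 14.5 and 14.9 CPM in the control libraries and at 33.6, 24.6 and 28.6 CPM in the Trim33-deficient ones. The groups were well apart, and the difference was 1.92-fold (log2 0.94 ± 0.13 SE, adjusted p = 0.000424). This and every further adjusted p comes from edgeR's quasi-likelihood fit, by the Benjamini-Hochberg method over all tested genes. By day 2.5 the levels had moved to 23.7, 24.1 and 21.1 CPM in control and 56.7, 48.7 and 42.0 CPM in Trim33-deficient bodies. Again the groups did not overlap, and the rise was 2.14-fold (log2 1.10 ± 0.12 SE, adjusted p = 3.78e-06). Jun passed on both days under each of the 24 alternative settings run.

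Junb, a Jun relative that binds DNA like Jun but activates more weakly at many sites, went the same way with more spread. On day 2 the control libraries held 5.29, 6.26 and 4.56 CPM and the Trim33-deficient libraries 15.6, 9.94 and 9.53 CPM. Replicate 1, one of the 2 libraries rich in Rn45s, was the high one. Junb rose 2.12-fold on day 2 (log2 1.09 ± 0.25 SE, adjusted p = 0.0162), and 1.93-fold on day 2.5 (log2 0.95 ± 0.23 SE, adjusted p = 0.00423), from 7.42, 10.6 and 5.79 to 16.7, 16.5 and 12 CPM. Without day 2 control replicate 1 or 3 or day 2 Trim33-deficient replicate 1 the day 2 call of Junb was lost, at adjusted p = 0.0527, 0.0736 and 0.0557. Jun and Junb each overlap a gene on the opposite strand in GENCODE M21, and the strand setting of the counting is not given in the sources used here. The neighbour of Junb, Prdx2, had a log2 difference of -0.21 on day 2.5 (adjusted p = 0.00528). The antisense gene at Jun, Junos, has no row of its own. Whether reads of the opposite strand were counted for any member was not tested.

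Among the Fos proteins, which bind DNA only as partners of Jun proteins, Fos and Fosl1 rose on day 2.5. Fos was at 2.43, 2.40 and 1.83 CPM in the day 2.5 control libraries and at 5.67, 7.32 and 4.52 CPM in the Trim33-deficient ones. This was 2.63-fold (log2 1.39 ± 0.24 SE, adjusted p = 0.000241), from 27 to 37 against 76 to 100 counts a library. On day 2 the groups overlapped, with 2.64, 4.02 and 2.75 CPM in control and 5.09, 3.31 and 3.56 CPM in Trim33-deficient bodies (log2 0.31 ± 0.24 SE, adjusted p = 0.472). Fosl1, also called Fra-1, stood at 2.03, 2.13 and 1.64 CPM in day 2.5 control and at 4.80, 4.24 and 5.36 CPM in day 2.5 Trim33-deficient libraries, a rise of 2.50-fold (log2 1.32 ± 0.22 SE, adjusted p = 0.000174). Its day 2 levels of 2.88, 1.78 and 2.05 against 2.97, 2.31 and 3.50 CPM overlapped (log2 0.39 ± 0.23 SE, adjusted p = 0.322). Fos and Fosl1 passed on day 2.5 under all 24 alternatives. Fosl1 overlaps Ccdc85b on the other strand in GENCODE M21, and Ccdc85b had a log2 difference of 0.07 ± 0.08 SE on day 2.5 (adjusted p = 0.507).

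Fosb and Fosl2 did not pass on either day. Fosb was near the floor, with 2 to 10 counts a library in day 2.5 controls and 11 to 17 in Trim33-deficient bodies. It was at 0.66, 0.18 and 0.38 against 0.80, 0.80 and 1.01 CPM there, without overlap (log2 1.04 ± 0.47 SE, adjusted p = 0.0829), and it passed the filter on low counts only because of the Trim33-deficient libraries. For Fosl2, also called Fra-2, the outcome turned on 1 control library. On day 2.5 its control libraries held 2.17, 8.44 and 2.58 CPM and its Trim33-deficient libraries 6.26, 4.75 and 5.30 CPM (log2 0.38 ± 0.47 SE, adjusted p = 0.549). Replicate 2, high in hypoxia genes and rich in Rn45s, lay above all Trim33-deficient libraries, and the other two controls lay below them all. Without day 2.5 control replicate 2 Fosl2 was 2.29-fold higher (log2 1.20, adjusted p = 0.00802), an alternative that leaves that group with 2 libraries and so rests on the spread shared with the other groups. On day 2 Fosl2 was at 2.64, 6.50 and 2.99 CPM in control and 3.92, 2.81 and 3.69 CPM in Trim33-deficient bodies, with replicate 2 again the high control (adjusted p = 0.818).

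Atf3, a stress-induced member of the ATF family that pairs with Jun proteins, showed the largest fold change of the 10 on day 2.5 with all libraries in the fit. It was at 2.63, 0.89 and 1.64 CPM in control and at 5.24, 5.34 and 4.88 CPM in Trim33-deficient libraries. The Trim33-deficient libraries lay close together and the controls did not, and the rise was 2.90-fold (log2 1.53 ± 0.25 SE, adjusted p = 0.000165). The lowest control, replicate 2 with 10 counts, was one of the 2 libraries rich in Rn45s. With single libraries left out the log2 difference was 1.28 to 1.96, and Atf3 passed under all 24 alternatives. On day 2 the groups were also apart, at 0.96, 1.08 and 0.94 against 1.91, 1.5 and 2.15 CPM. That difference rested on 12 to 14 counts a library in control and 18 to 35 in Trim33-deficient bodies and did not pass (log2 0.89 ± 0.33 SE, adjusted p = 0.102). Atf3 overlaps Gm24748 on the opposite strand in GENCODE M21, and Gm24748 has no row of its own.

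Egr1, a zinc finger factor and a common readout of ERK activity, did not pass on either day. Its levels were 10.5, 9.67 and 13.8 CPM in day 2 control and 13.05, 10 and 12.8 CPM in day 2 Trim33-deficient libraries (log2 0.07 ± 0.18 SE, adjusted p = 0.842). On day 2.5 they were 14.04, 12.6 and 9.38 CPM against 8.66, 11.3 and 11.8 CPM (log2 -0.17 ± 0.18 SE, adjusted p = 0.450). The groups overlapped both times. Egr1 had 119 to 214 counts a library, more than Fos or Atf3 had in any library.

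Ier2, a small nuclear protein induced with Fos and Jun, rose by a small amount on both days. On day 2 it was at 87.3, 79.5 and 83.3 CPM in control and at 113, 95.1 and 98.1 CPM in Trim33-deficient libraries, a rise of 1.22-fold (log2 0.29 ± 0.07 SE, adjusted p = 0.0132). On day 2.5 the levels were 79.5, 77.2 and 80.0 CPM against 89.7, 97.9 and 90.6 CPM, a rise of 1.17-fold (log2 0.23 ± 0.07 SE, adjusted p = 0.00944). Neither day showed overlap between the groups. The day 2 call was lost without day 2 control replicate 3 (adjusted p = 0.0502) or day 2 Trim33-deficient replicate 1 (adjusted p = 0.0593). Without all 3 libraries that stood apart it was lost as well, with the log2 difference at 0.18 (adjusted p = 0.0525). The day 2.5 call was lost without day 2.5 Trim33-deficient replicate 2 (adjusted p = 0.0560).

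Ier3, a survival gene that is induced by growth factors, NF-kappaB and several stresses, was lower on average in Trim33-deficient bodies but did not pass. The day 2 control libraries held 6.01, 21.5 and 8.34 CPM and the Trim33-deficient ones 6.36, 6.25 and 4.98 CPM. On day 2.5 the levels were 4.99, 21.1 and 7.05 CPM against 5.75, 4.46 and 5.24 CPM. Replicate 2 was far above every other library in both control groups, and these are the 2 libraries high in hypoxia and glycolysis genes. The log2 differences of -1.04 ± 0.62 SE on day 2 (adjusted p = 0.342) and -1.05 ± 0.62 SE on day 2.5 (adjusted p = 0.209) shrank to -0.30 ± 0.20 (adjusted p = 0.349) and -0.22 ± 0.20 (adjusted p = 0.379) without them. The remaining libraries of both genotypes lay between 4.46 and 8.34 CPM.

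**Figure D2:**
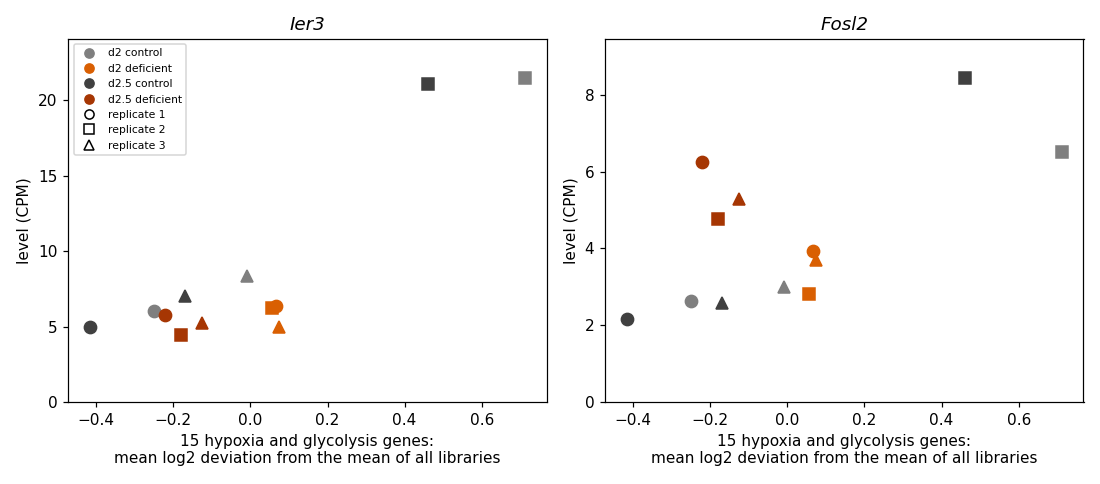
Level of Ier3 and Fosl2 in CPM (linear axis from 0) against the mean log2 deviation of 15 hypoxia and glycolysis genes, 1 point per library, coloured by group and shaped by replicate. The 2 libraries at 0.46 and 0.71 on the horizontal axis have the highest Ier3 (21.1 and 21.5 CPM) and the highest Fosl2 (8.44 and 6.50 CPM); the day 2.5 Trim33-deficient libraries reach 4.75 to 6.26 CPM of Fosl2 with the hypoxia genes between -0.22 and -0.13.

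Between day 2 and day 2.5, 1 member rose in control bodies and 3 rose in Trim33-deficient bodies, while 0 fell in either. Among all tested genes 16.1% passed over this interval in control (8.20% higher, 7.91% lower) and 16.0% in Trim33-deficient bodies (9.09% higher, 6.93% lower). The days did not overlap for 1 higher (Jun) and 1 lower (Fos) member in control, where 31.2% of all tested genes did not (16.2% higher), and for 4 higher members in Trim33-deficient bodies, where 38.7% did not (19.4% higher, 19.3% lower). Jun rose in both, by 0.61 ± 0.13 on the log2 scale in control (adjusted p = 0.00451) and by 0.77 ± 0.11 in Trim33-deficient bodies (adjusted p = 0.000309), without overlap between days in either. Atf3 rose 2.77-fold in Trim33-deficient bodies (log2 1.47 ± 0.25 SE, adjusted p = 0.000986), and its difference in control was 0.82 ± 0.33 (adjusted p = 0.103). That control difference passed without day 2.5 control replicate 2 (log2 1.08, adjusted p = 0.0233). Fosl1 rose 1.64-fold in Trim33-deficient bodies (log2 0.72 ± 0.20 SE, adjusted p = 0.0259), a call lost without day 2 Trim33-deficient replicate 2 or day 2.5 Trim33-deficient replicate 1 or 3 (adjusted p = 0.148, 0.0728 and 0.0869), and in DESeq2 with every library kept (log2 0.71, adjusted p = 0.0511). In control Fosl1 stood at -0.22 ± 0.25 (adjusted p = 0.590).

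Fos had differences of opposite sign over time, -0.51 ± 0.26 on the log2 scale in control (adjusted p = 0.203) and 0.58 ± 0.22 in Trim33-deficient bodies (adjusted p = 0.0883), and neither passed. Without day 2 Trim33-deficient replicate 1 or day 2.5 Trim33-deficient replicate 3 the second did (adjusted p = 0.0421 and 0.0437). Fosl2 and Junb did not pass over time in Trim33-deficient bodies with all libraries. Without all 3 libraries that stood apart, 6 members rose there: Jun, Atf3, Fosl1, Fos, Fosl2 (log2 0.74, adjusted p = 0.00872) and Junb (log2 0.62, adjusted p = 0.00327). Calls over all genes rose in that fit too: 3741 of 14642 tested genes passed, 1980 higher and 1761 lower, in place of 2300. Egr1, Ier2 and Ier3 did not pass over time in either genotype.

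**Figure D3:**
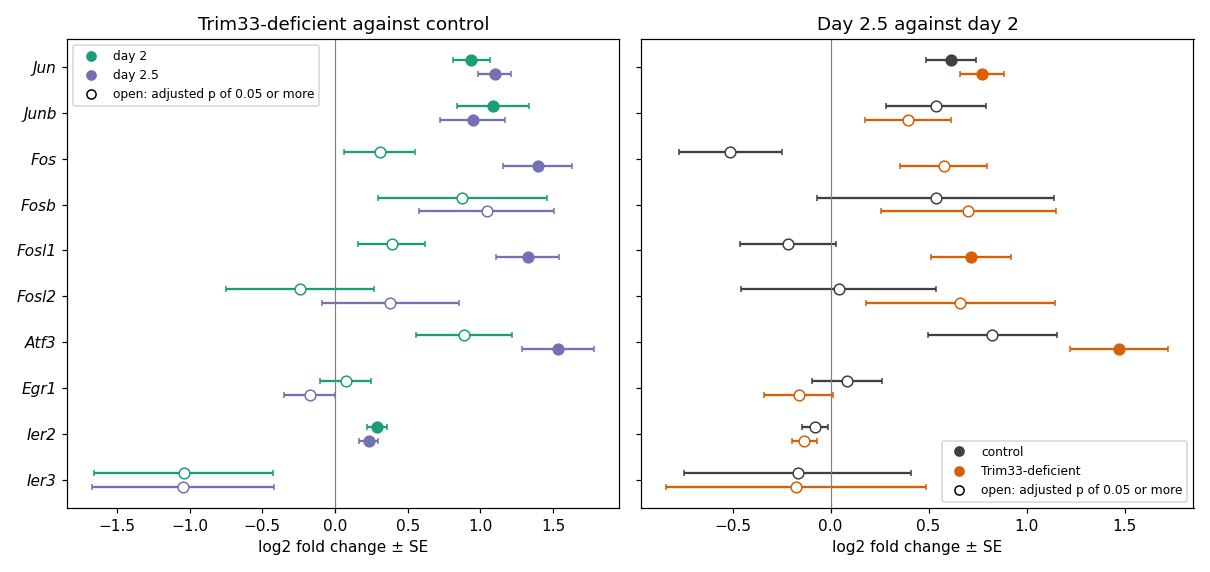
Log2 fold change of each of the 10 genes with its standard error, Trim33-deficient against control on each day (left) and day 2.5 against day 2 in each genotype (right); filled points have an adjusted p under 0.05 in the edgeR quasi-likelihood test. Jun is filled in all 4 comparisons, Fos, Fosl1 and Atf3 are filled for genotype on day 2.5 and open on day 2, and the bars of Fosl2 and Ier3 are the widest together with Fosb.

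Whether the effect of Trim33 loss itself changed between the days was tested by the interaction of genotype and day. Of the 10 members 0 passed in the edgeR test and 0 in DESeq2, where 4.01% of all tested genes passed in edgeR (2.77% higher, 1.24% lower), and 2 members had an unadjusted p under 0.05. These were Fos (log2 1.09 ± 0.34 SE, adjusted p = 0.0823) and Fosl1 (0.93 ± 0.32, adjusted p = 0.110). Fos did pass without day 2 Trim33-deficient replicate 1 (log2 1.27, adjusted p = 0.0382) or day 2.5 Trim33-deficient replicate 3 (log2 1.25, adjusted p = 0.0469). Jun and Junb, called on both days, had interactions of 0.16 ± 0.17 and -0.14 ± 0.34 on the log2 scale (adjusted p = 0.644 and 0.853). That Fos, Fosl1 and Atf3 passed for genotype on day 2.5 and not on day 2 is thus not shown to be a difference between the days.

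The counts of the further lists stand beside 22.0% of all tested genes higher and 20.7% lower on day 2.5, and 5.94% and 3.90% on day 2. Of 12 other immediate early transcription factors 10 were tested on day 2.5, and 5 rose, 0 fell and 5 did not pass, with a median log2 fold change of 0.58. Klf6, a zinc finger tumour suppressor, rose from 100 ± 4.31 to 227 ± 22.0 CPM (SD, n = 3 each, 2.27-fold, adjusted p = 8.35e-09). Nr4a1, an orphan nuclear receptor, rose 1.67-fold, and Csrnp1, an AXIN1-induced nuclear protein, rose 1.78-fold from 64.6 ± 10.1 to 115 ± 5.71 CPM. On day 2, 2 rose, Klf6 by 0.66 ± 0.07 and Nr4a1 by 0.62 ± 0.10 on the log2 scale, with a median of 0.08 over the list. The relatives of Egr1 on this list were low, with Egr2 at a mean of 0.77 and 0.86 CPM in day 2.5 control and Trim33-deficient bodies.

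Immediate early effectors, the induced enzymes and secreted or signalling proteins, went both ways. On day 2.5, 9 of 18 rose, 2 fell and 7 did not pass (median 0.45, where 22.0% of all tested genes rose and 20.7% fell). On day 2, 4 rose and 2 fell (median 0.09, where 5.94% rose and 3.90% fell). Ctgf, a secreted matrix protein known as a target of YAP as well as of serum response factor, rose 3.40-fold on day 2.5, from 65.0 ± 0.71 to 221 ± 8.72 CPM (SD, n = 3 each). Btg2, an antiproliferative gene and p53 target, rose 2.12-fold (log2 1.08 ± 0.09 SE). Sgk1, a kinase induced by serum and glucocorticoid, fell by 0.59 ± 0.07 on the log2 scale on day 2.5 and by 0.55 ± 0.07 on day 2. The list therefore did not move as 1 block.

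Partners that share the basic leucine zipper with Fos and Jun were next. Of 11 listed genes 9 were tested on day 2.5, and 5 rose, 0 fell and 4 did not pass (median 0.36, where 22.0% of all tested genes rose and 20.7% fell). Maf, 1 of the genes tested, entered the test only through its day 2.5 Trim33-deficient libraries. It had 14 to 17 counts a library there and 5 to 7 in day 2.5 controls. Its direction on day 2.5 is therefore no result, although it is included in these counts and in the median. Jund, the Jun protein that is expressed without induction, rose 1.36-fold from 107 to 146 CPM on average (log2 0.45 ± 0.08 SE, adjusted p = 0.000234). Mafk and Mafg, small Maf proteins, rose by 0.60 ± 0.09 and 0.36 ± 0.05. On day 2 Jund and Mafk were the 2 that rose, by 0.34 ± 0.08 and 0.49 ± 0.09.

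Upstream kinases and factors did not rise as a group. Of 16 genes 3 rose and 6 fell on day 2.5, with a median of -0.04, and 2 rose and 0 fell on day 2, with a median of 0.02. Mkl2, a co-activator of serum response factor, and Rps6ka1, a kinase downstream of ERK, rose by 0.59 ± 0.08 and 0.41 ± 0.06 on the log2 scale on day 2.5. Creb1, a cyclic AMP response factor, fell by 0.38 ± 0.06. Serum response factor itself, Srf, fell by 0.55 ± 0.08 (adjusted p = 0.000134), and is named here after its values were seen. The 2 rises on day 2, again Mkl2 and Rps6ka1, were lost without day 2 Trim33-deficient replicate 1. RNA levels of kinases do not measure their activity.

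Textbook targets of AP-1 went both ways. Of 11 listed genes 8 were tested on day 2.5, and 4 rose, 2 fell and 2 did not pass (median 0.42), against 1 and 1 on day 2 (median -0.13). Plaur, the urokinase receptor, rose 4.01-fold on day 2.5, from 4.90 ± 0.10 to 19.7 ± 2.23 CPM, and by 1.24 ± 0.23 on the log2 scale on day 2. Spp1, the secreted protein osteopontin, rose 2.40-fold on day 2.5, from 57.4 ± 8.86 to 138 ± 5.52 CPM. The cell cycle gene Ccnd1 fell by 0.58 ± 0.09 on day 2.5 and by 0.55 ± 0.09 on day 2. The matrix metalloproteases Mmp3, Mmp10 and Mmp13 had no counts in either group on day 2.5 and were not tested.

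**Figure D4:**
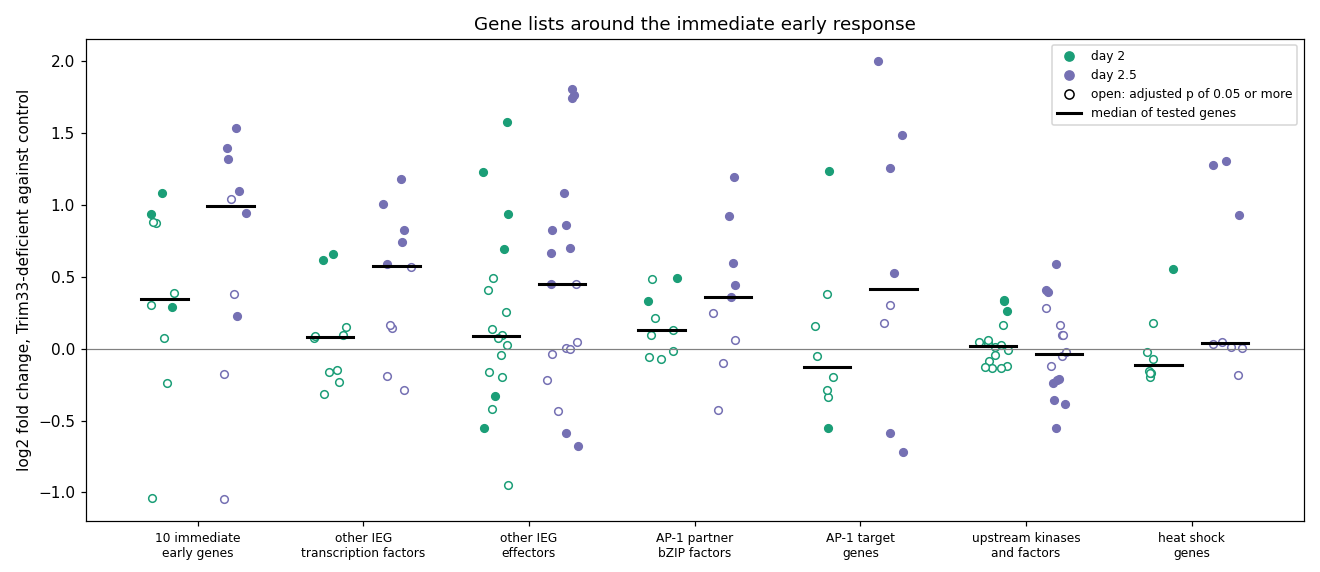
Log2 fold change of Trim33-deficient against control for every tested gene of 7 lists, day 2 and day 2.5 side by side; filled points have an adjusted p under 0.05 and the black lines are medians over the tested genes of the list. On day 2.5 the 10 immediate early genes have a median of 0.99 (0.95, the value of Junb, without Fosb), and the upstream kinases and factors one of -0.04. The AP-1 partner factors include Maf, which entered the test only through its day 2.5 Trim33-deficient libraries.

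Heat shock genes are known to be induced, like immediate early genes, by stress and by the handling of cells. Of 8 heat shock genes 3 rose on day 2.5, 0 fell and 5 did not pass (median 0.04); on day 2 Hspb1 alone rose (log2 0.56, adjusted p = 0.0404), a call lost in 13 of 24 alternatives. On day 2.5 the small heat shock gene Hspb1 rose 2.43-fold, and the inducible Hspa1a and Hspa1b rose 2.47-fold and 1.90-fold, while Hsp90aa1, Hspa8 and Dnajb1 had log2 differences of 0.03, 0.00 and 0.02. The mean log2 deviation of the 8 genes was 0.25, 0.23 and 0.27 in the day 2.5 Trim33-deficient libraries and 0.01, -0.33 and -0.22 in the day 2.5 controls. On day 2 it was 0.08, -0.10 and -0.09 in Trim33-deficient and 0.07, -0.18 and 0.01 in control libraries, which overlapped. Summed over the list, the level was 1999 to 2113 CPM in day 2.5 Trim33-deficient and 1786 to 2140 CPM in day 2.5 control libraries. The part of handling or stress in the rise of the immediate early genes was not tested. Rn45s was 1.08 to 1.67% of counts in the day 2.5 Trim33-deficient libraries, and 0.609, 11.9 and 0.727% in day 2.5 control replicates 1, 2 and 3.

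The genes most like each member over the 12 libraries were found by Pearson's r of log2 CPM, given as a description, since all libraries share the same 4 groups. In none of the 30 closest matches of the 10 members was the match itself a member. Members are only 10 of the 14356 tested genes, so this cannot tell whether they vary together. For Jun they were Mtch1, Mme and Perp (r = 0.98 each), and for Fos Elf3, Tmprss11f and Tspan32 (r = 0.94 to 0.95). Ier3 was most like Fam117b (r = 0.98), Ero1l (r = 0.95), itself one of the 15 hypoxia and glycolysis genes, and Prelid2 (r = 0.95). Fosl2 was most like Anxa2 (r = 0.97), and Egr1 had no match above r = 0.75.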

How the data were processed

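RNA was sequenced from 12 libraries of mouse embryoid bodies. The authors deposited unnormalized read counts for each gene symbol, in 1 file for each library; STAR, HTSeq and DESeq and the build mm9 are named per the submitters' processing notes, and the sources used here give no versions, annotation, strand setting or rule for multi-mapping reads. The 5 rows that name no gene were left out; reads in no feature were 55.9 to 60.5% of those counted and ambiguous ones 0.144 to 0.189%. In day 2.5 Trim33-deficient replicate 1, 27 gene names turned into dates were restored by row position, since all files list genes in 1 order.

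Counts were scaled with TMM factors, filtered with filterByExpr (at least 10 counts, 15 in total) and fitted as 4 group means to all 12 libraries in edgeR 4.0.16 under R 4.3.3 (robust quasi-likelihood, 8 residual degrees of freedom). Benjamini-Hochberg adjustment ran over all tested genes, with a threshold of 0.05. Standard errors are the log2 fold change over the root of F. CPM use TMM-scaled library sizes, and log2 CPM a prior count of 2. Floors of 3 counts cover counting error only. The fit was tested on simulated counts. The labels call the replicates independent pairs but do not tie the numbers to pairs, and p-values reflect only the scatter among these libraries, which may be technical. DESeq2 1.42.0, other scalings and filters, fits of only the groups compared, replicate blocks and left-out libraries served as alternatives; the fit without both libraries high in hypoxia genes was chosen after seeing the data, as was the hypoxia list. The members and lists were chosen with earlier results of these data known. Named genes are the 10 members, Trim33, up to 3 genes per further list with the smallest adjusted p for genotype on day 2.5, and the 3 closest matches of each member; others are values beside a result or named as chosen later.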

Additional observations from a re-analysis of the deposited data

Results flagged for a closer look

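For 4 of the named genes the effect of Trim33 loss differed between day 2 and day 2.5 by the interaction test (edgeR quasi-likelihood, adjusted p under the threshold), where 4.01% of all tested genes passed. All 4 effects were larger on day 2.5, but these genes were named for their small adjusted p on that day, so the direction follows from the choice. The interaction was 0.52 ± 0.09 SE on the log2 scale for Klf6 (adjusted p = 0.00964) and 0.74 ± 0.16 for Csrnp1 (adjusted p = 0.0279). It was 0.88 ± 0.17 for Spp1 (adjusted p = 0.0182) and 1.08 ± 0.26 for the heat shock gene Hspa1b (adjusted p = 0.0305). Over the 22 alternatives of the interaction the call of Csrnp1 was lost in 7, that of Hspa1b in 9 and that of Spp1 in 6, while Klf6 kept its call in all. Groups of 3 libraries are too small for the check on single libraries that stand apart.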

How the results depend on the processing

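Of 1150 values of the 10 members under the alternatives, over 50 combinations of gene and comparison, 1113 stayed on their side of the threshold, 11 lost it, 26 gained it and 0 called values changed sign. For genotype on day 2.5 the count of members called was 6, and 5 to 7 when single libraries were left out. Over all tested genes 6143 passed, and 4794 to 6571 when single libraries were left out. The added member was Fosl2 without day 2.5 control replicate 2 and Fosb without day 2.5 control replicate 1. That call of Fosb is no result, since Fosb entered the test only through its Trim33-deficient libraries. On day 2 it was 3, and 1 to 4 when single libraries were left out, with 1 without day 2 control replicate 3 or day 2 Trim33-deficient replicate 1. Over time in control bodies it was 1, and 1 to 2 with single libraries left out; it was 2 without both libraries rich in Rn45s, without all 3 that stood apart and without both high in hypoxia genes. Over time in Trim33-deficient bodies it was 3, and 2 to 4 with single libraries left out, 5 without both rich in Rn45s, 6 without all 3 and 5 without both high in hypoxia genes. For the interaction it was 0, and 0 to 1 with single libraries left out, 1 without both rich in Rn45s and 2 without all 3.

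Counts over all tested genes moved more. On day 2, 1413 genes passed, 814 without both libraries rich in Rn45s and 514 to 1617 with single libraries left out. Over time 2313 passed in control bodies, 1384 in a fit of those groups alone and 1235 to 2393 with single libraries left out. In Trim33-deficient bodies 2300 passed over time, 3741 without all 3 libraries that stood apart, 3452 without both high in hypoxia genes and 1101 to 2780 with single libraries left out. The interaction gave 575, then 1967, 1088 and 119 to 1217 in the same order. The cause was not tested.

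Same-numbered libraries of 1 day did not deviate together (correlations over genes -0.08 to 0.17 on day 2 and -0.03 to -0.01 on day 2.5), and 3 of 6 and 0 of 6 libraries correlated best with their own number. Across days the same-numbered controls had correlations of 0.36, 0.45 and 0.03, with 4 of 6 best with their own number, and replicate 2 was high in hypoxia genes on both days; for Trim33-deficient libraries the range was -0.02 to 0.18, with 3 of 6. In each pairing at least 1 correlation was under 0.1, so the numbers were not taken as pairs. With 3 libraries a group this cannot exclude that the controls were paired across days. With a replicate block 1 member, Fos, passed the interaction (log2 1.06, adjusted p = 0.0434), where 1169 of all tested genes passed; the block changed no other count of members called. A block within each day gave 3 members on day 2 and 6 on day 2.5. Over all 24 alternatives, 514 to 2023 of all tested genes passed on day 2 and 4794 to 6656 on day 2.5. Depth limits Fosb, at 2 to 17 counts a library, with standard errors for genotype of 0.58 on day 2 and 0.47 on day 2.5 (log2).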
